A study of Physcomitrium patens with 8 samples.

Results

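The genes described here were at least 4-fold higher with ABA or with mannitol in the moss line labelled PpanrKO (KO below) while staying within 2-fold of the control under both treatments in wild type (WT). They were chosen on the deposited normalized abundance, as y = log2(value + 10), among genes with a mean of at least 20 over the 8 libraries. A member had a KO ABA minus KO control or a KO mannitol minus KO control of at least 2, with WT ABA minus WT control and WT mannitol minus WT control both between -1 and 1. The rule found 114 genes of the 26610 in the table and of the 19821 that passed the mean. Of these, 27 reached the threshold under both treatments, 23 with ABA and not mannitol, and 64 with mannitol and not ABA. Without the mean, 21 more genes met the rule. Because these contrasts chose the genes, their sizes are a description and no test was made on them. Counts of genes at least 2-fold or 4-fold apart use this log2 scale, on which adding 10 shrinks the change of low genes, and fold values with an interval are ratios of normalized reads.

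Each library came from chloronemata, the chloroplast-rich filaments of the moss Physcomitrium patens (strain Gransden), 6 days after subculture. The 4 WT and 4 KO libraries were an untreated control, ABA at 1e-05 M for 1 h, mannitol at 10% (w/v) for 1 h, and slow dehydration over saturated NaCl to a loss of 70% of the fresh weight. RNA of 3 biological replicates was pooled for each library, so each group is 1 library and no difference between 2 libraries has a replicate check. The labels give the KO genotype by its name alone. How the line was made, and whether it is 1 clone, are not given in the sources used here. The libraries held 22516957 to 38767634 reads.

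Abscisic acid (ABA) is the hormone with which land plants answer water shortage. In flowering plants and mosses ABA receptors inhibit group A type 2C protein phosphatases, which frees SnRK2 kinases to activate transcription factors and, through them, genes for late embryogenesis abundant proteins and other protectants. In mosses a Raf-like protein kinase known as ANR, ARK or CTR1L lies upstream of SnRK2, and lines without it lose ABA responses and desiccation tolerance. Mannitol at high concentration withdraws water from the cells and engages this pathway and ABA-independent osmotic responses. The deposited IDs carry no gene names. A RefSeq table for a different assembly matched 0 of them. No member is therefore given a function, lists of pathway or chloronemal marker genes could not be matched, and the targeted gene was not identified.

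In KO, 171 of the genes kept (0.863%) were at least 4-fold higher with ABA and 291 (1.47%) with mannitol, together 371 genes, of which the members were 30.7%. With the genotypes exchanged, the same rule found 981 genes, or 61.9% of the 1585 that were at least 4-fold higher with ABA or mannitol in WT. The mirror set, 4-fold lower in KO under either treatment and within the same WT limits, held 71 genes.

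Most members had low levels in WT. The median normalized abundance over the members was 26.0 in the WT control, 26.7 with ABA, 34.6 with mannitol and 20.3 after dehydration. In KO it was 33.1 untreated, 144 under ABA, 243 under mannitol and 87.5 after dehydration. The mean over the 8 libraries had a median of 73.9 for the members and of 419 for all genes kept. In 35 members no WT library exceeded 20 reads, 25 had 0 reads in at least 1 WT library, and 49 had under 20 reads in the KO control. The exact 95% interval of the read ratio, which covers counting error only, lay above 2-fold for all 50 members that qualified with ABA and all 91 that qualified with mannitol, although 16 and 45 of them had under 20 reads in the KO control. The same reads entered the rule, which largely sets these counts, so they are a description and no check of the rises. In pooled tissue, fewer cells of a type and less RNA per cell cannot be told apart.

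**Figure D1:**
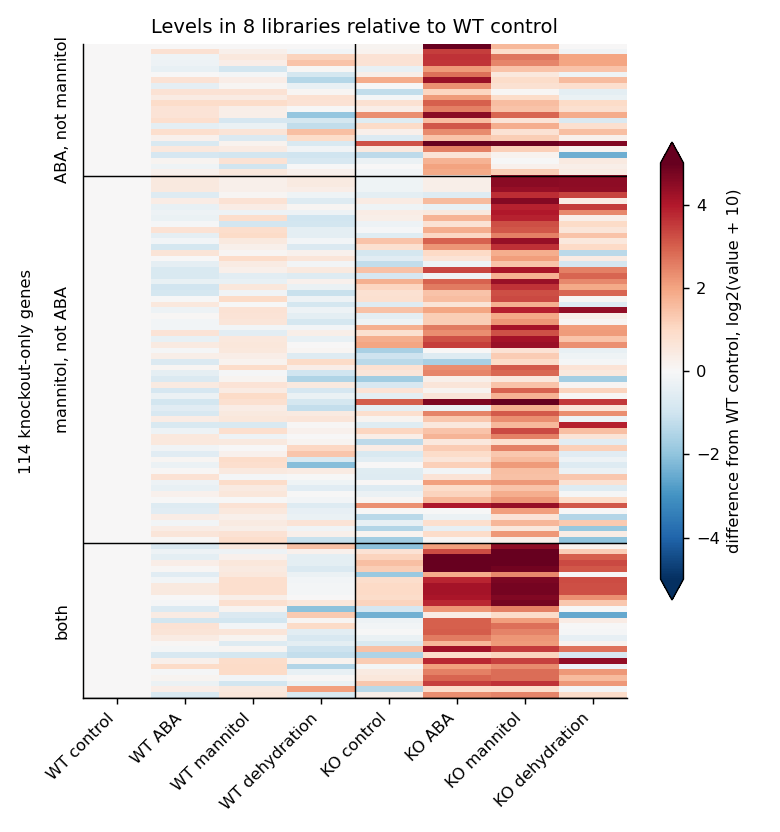
Difference of each of the 114 genes (rows, ordered within each class by the larger KO difference) from its WT control level, on the log2(value + 10) scale, in the 8 libraries (columns, 1 library each). The WT ABA and mannitol columns lie within 1 of the WT control by the rule, the KO ABA and mannitol columns are mostly red, and the KO dehydration column is mixed.

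ABA and mannitol differences in KO went unequally. With mannitol 81 of the 114 genes had a higher value than with ABA, by at least 1 log2 unit in 38, and ABA was above mannitol by at least 1 in 15. Both libraries entered the rule, which 91 members met with mannitol and 50 with ABA, so these counts are a description. The same counts over all genes kept were not made. Of the 64 genes that qualified with mannitol alone, 43 were still at least 2-fold higher with ABA in KO, where 8.29% of all genes kept were. Of the 23 that qualified with ABA alone, 11 were at least 2-fold higher with mannitol, where 9.1% of all genes kept were. No member was 2-fold lower in KO with either treatment, where 4.97% of all genes kept were with ABA and 9.56% with mannitol. Each member had to rise over the KO control in at least 1 of these treatments, so this follows in part from the rule. The ABA and mannitol differences share the KO control library. The genes that qualified with ABA alone were the more abundant, with a median mean abundance of 301, against 56.5 for those with mannitol alone and 187 for those with both.

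**Figure D2:**
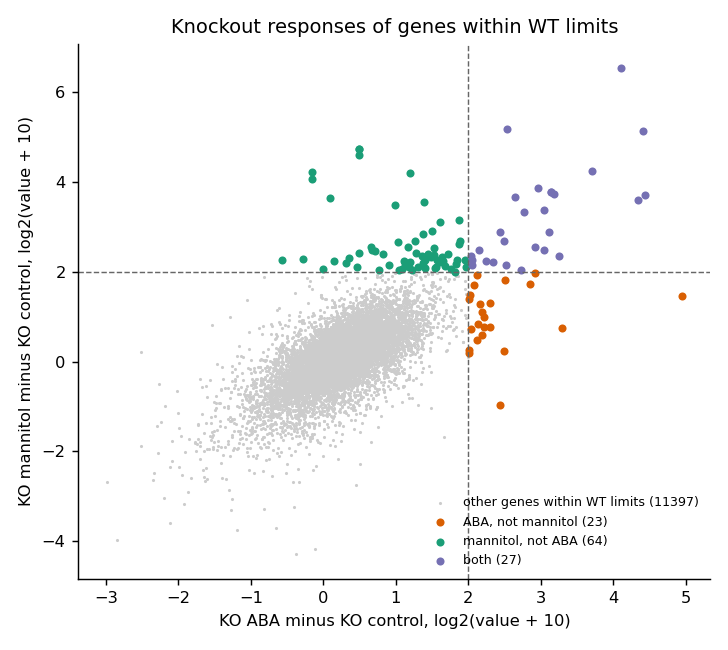
KO ABA minus KO control (x axis) against KO mannitol minus KO control (y axis), on the log2(value + 10) scale, for the genes within the WT limits, with dashed lines at the threshold of 2. The 114 members lie to the right of or above a dashed line, and 64 of them qualified with mannitol alone.

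Among the 27 genes with both treatments, Phpat.018G062000 (build V3.0, chromosome 18, 13259200 to 13262275, plus strand) had the largest mannitol difference and the next to largest value of the smaller of its ABA and mannitol differences. Its KO control had a normalized abundance of 11.0, against 351 under ABA, 1926 under mannitol and 90.8 after dehydration. In WT it was 78.1, 43.6, 115 and 233 in the same order. The KO control and the KO dehydrated library lay below their WT counterparts, and the KO ABA and mannitol libraries above every WT library. On reads, mannitol was 175-fold above control in KO (95% counting interval 94.8 to 365) and ABA 31.9-fold (17.1 to 67.0).

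Phpat.005G092200 (chromosome 5, 17716009 to 17717302, plus strand) had the largest value of the smaller of its ABA and mannitol differences. Its WT reads were 4, 0, 8 and 0 across control, ABA, mannitol and dehydration, against KO reads of 18, 663, 1470 and 107. Every KO library was above every WT library. Against the KO control it was 31.6-fold higher with ABA (19.8 to 53.6) and 52.2-fold with mannitol (32.9 to 88.3). Over the 8 libraries the genes with the most similar profile, by Pearson's correlation of log2(value + 10), were 2 other members, Phpat.007G077100 (chromosome 7, 14301117 to 14302709, r = 0.998) and Phpat.004G083400 (chromosome 4, 14392016 to 14395399, r = 0.988). Phpat.007G077100 had at most 3 reads in any WT library and 8, 170, 339 and 41 in KO, the same order of the 4 conditions.

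The most abundant signal was shared by Phpat.008G046500 (chromosome 8, 8762310 to 8763828, plus strand) and Phpat.008G046600 (chromosome 8, 8816552 to 8818069, minus strand), neighbours in opposite orientation whose reads differed by at most 4 in any library. The same reads may be counted at both, and their values are uncertain as separate genes. Abundance, not corrected for length, was 1045 in the WT control, 1451 with ABA, 1901 with mannitol and 977 after dehydration. In KO the former stood at 2116 untreated, at 18793 under ABA, at 29213 under mannitol and at 9779 dried. All 4 KO libraries were above all 4 WT libraries, with the KO control the nearest. In KO the former was 8.88-fold higher with ABA (8.47 to 9.31) and 13.8-fold with mannitol (13.2 to 14.5). Apart from its near-equal copy, the gene most like the latter over the 8 libraries was Phpat.022G011400 (chromosome 22, 1993559 to 1997748, r = 0.995), which was no member, with WT reads of 17, 15, 34 and 13 against KO reads of 29, 150, 207 and 83.

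With ABA in KO the largest difference was in Phpat.025G027000 (chromosome 25, 4728596 to 4732564, minus strand), a gene that qualified with ABA alone. It had 0 reads in all 4 WT libraries, which allows up to 3 reads in each. In KO it had 1 read untreated, 351 under ABA, 29 under mannitol and 0 after dehydration. The ABA ratio in KO was 301, with a counting interval of 53.6 to 11910. Its signal was thus read in the KO ABA and mannitol libraries and was at or near 0 in the other 6.

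The next largest ABA difference was in Phpat.016G084300 (chromosome 16, 12593269 to 12596144, minus strand), with WT reads of 6, 6, 18 and 1 across control, ABA, mannitol and dehydration, against KO reads of 31, 1006, 807 and 156. Phpat.016G084500 (chromosome 16, 12635178 to 12637501) had counts within 72 reads of it in every library. ABA was 27.8-fold above control in KO (19.5 to 41.1) and mannitol 16.6-fold (11.6 to 24.6). Here ABA was above mannitol, whereas in Phpat.018G007000 (chromosome 18, 1915340 to 1916380, plus strand) mannitol was above ABA. That gene, second in the mannitol difference, had at most 3 reads in any WT library and 9, 111, 1013 and 19 in KO, so that mannitol was 71.9-fold above control (37.7 to 158) and ABA 10.6-fold (5.37 to 23.7).

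**Figure D3:**
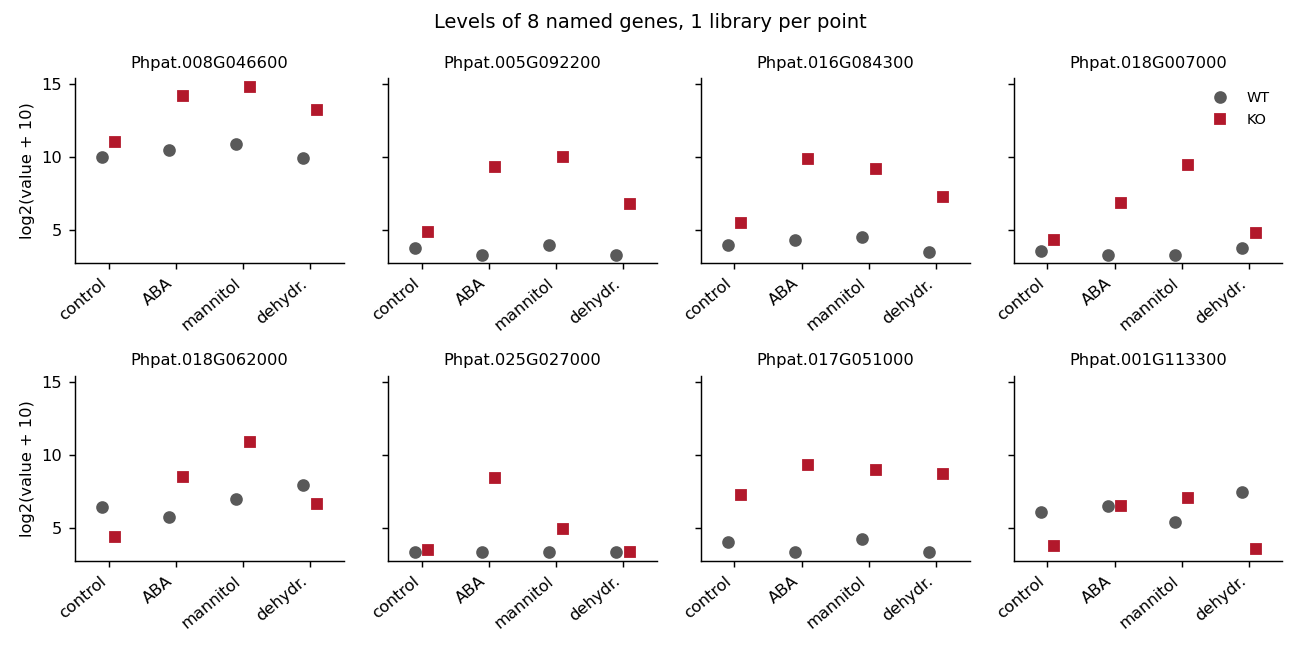
Level, as log2(value + 10), of 8 named genes under the 4 conditions (x axis) in WT (grey circles) and KO (red squares), 1 library per point and therefore with no error bars. Phpat.005G092200, Phpat.016G084300 and Phpat.017G051000 are higher in KO in every condition, whereas Phpat.018G062000 and Phpat.001G113300 are lower in the KO control and after dehydration.

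Genes at the threshold differed little across it. Just inside with ABA were Phpat.003G074300 (2.01) and Phpat.011G049100 (2.01), the latter overlapping another gene model, and just outside Phpat.007G002800 (1.99) and Phpat.014G097400 (1.97). With mannitol Phpat.002G044400 (2.00) and Phpat.009G006200 (2.04) were just inside, and Phpat.014G023500 (1.99) and Phpat.001G090500 (1.99) just outside. Phpat.009G006200 stood at 323, 496, 538 and 390 in WT control, ABA, mannitol and dehydration and at 358, 617, 1502 and 426 in KO, so that its KO mannitol library was the only one set apart. The list itself depended on the scale: 62 of the 114 met the rule with a pseudocount of 1, 61 with 32, 68 with median-of-ratios scaling, and 25 under all 3 of these as well.

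A difference against the KO control can come from a high treated level or a low control, and both were present. In the untreated libraries 23 members were at least 2-fold higher in KO than in WT (9.14% of all genes kept were) and 16 at least 2-fold lower (3.22% of all genes kept), with a median difference of 0.02 against 0.32 for all genes. Both controls entered the rule. Under the treatment in which they qualified, 98 members were at least 2-fold above WT under the same treatment and 16 were within 2-fold of it. With ABA 78 of the 114 were at least 2-fold higher in KO than in WT, where 26.2% of all genes kept were, and with mannitol 89, where 7.43% were. With median-of-ratios scaling the ABA count was 71, where 16.2% of all genes kept were, and the mannitol count 89, where 7.09% were. Of the 16 members with a lower KO control, 10 came up to within 2-fold of WT under treatment and 6 went at least 2-fold above it. In 91 members the higher of the KO ABA and mannitol values was at least 2-fold above the highest of the 4 WT libraries. The rule chose members on these KO values and limited WT ABA and mannitol. The counts of 98, 78, 89, 71 and 91 are therefore a description, at either scaling. Nothing is read from their excess over all genes kept. Those of 98 and 91 were not taken over all genes kept. With median-of-ratios scaling, which shifted the median genotype difference of all genes in the control by -0.34, the untreated counts were 16 higher and 20 lower, where 4.09% and 5.46% of all genes kept were.

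**Figure D4:**
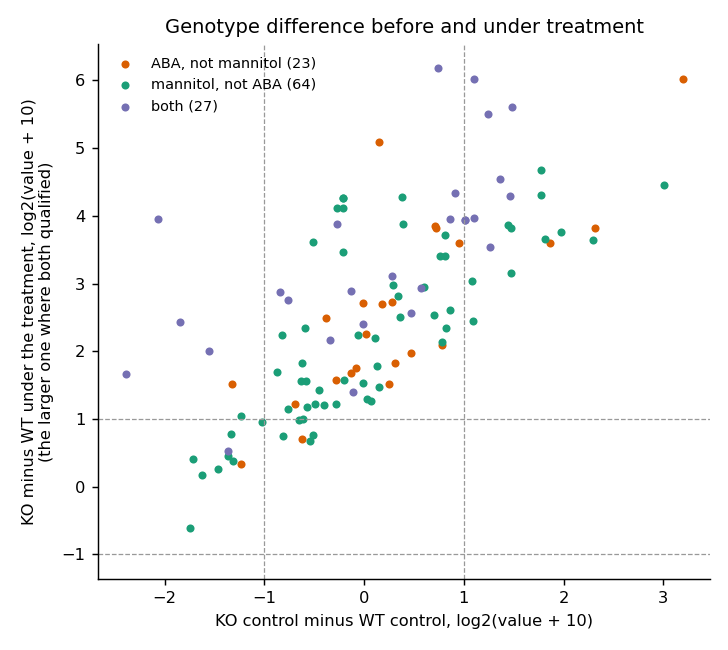
KO minus WT in the untreated libraries (x axis) against KO minus WT under the treatment in which the gene qualified, the larger value where both did (y axis), on the log2(value + 10) scale, 1 point per member and dashed lines at -1 and 1. In 98 members the treated difference is at least 1, and 10 lie at the lower left with a KO control at least 1 below WT and a treated level within 1 of it.

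The extremes in the controls show both forms. Phpat.017G051000 (chromosome 17, 9918353 to 9921516, plus strand) was read 7, 0, 12 and 0 times in the WT libraries (control, ABA, mannitol, dehydration) against 130, 674, 699 and 438 times in those of KO, and its KO control was 21.2-fold above WT (10.0 to 53.9). Phpat.001G090300 (chromosome 1, 17036958 to 17040623, minus strand) stood at 24.1, 8.08, 49.4 and 8.61 in WT and at 265, 853, 1290 and 385 in KO, 11.0-fold higher in the control (7.26 to 17.3). It overlaps another gene model, and its reads may include those of that model. In these genes every KO library was above every WT library, and the treated KO libraries added to a level that was already apart.

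At the other end, Phpat.001G113300 (chromosome 1, 20377683 to 20378543, plus strand) was read 62 times in the WT control and 3 times in the KO control, an 18.1-fold lower value (5.91 to 90.0). With ABA its abundance was 82.4 in WT and 80.3 in KO, and with mannitol 31.9 and 123. After dehydration it had 133 reads in WT and 2 in KO. Its KO level thus lay near or above WT in the ABA and mannitol libraries and far below in the control and dehydrated ones. Phpat.018G062000, described above, was 7.09-fold lower in the KO control (3.66 to 15.3).

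The dehydrated libraries entered the choice of members only through the mean of the 8 libraries. Genes low in WT could pass that mean through their KO ABA and mannitol values. The comparison genes were not matched for level. The median mean abundance was 73.9 for the members, 420 for the others within the WT limits and 419 for all genes kept. Of the 114 members, 56 (49.1%) were at least 2-fold higher in KO than in WT after dehydration, where 22.7% of all genes kept and 18.6% of the other 11397 genes within the WT limits were. Lower by at least 2-fold were 10 members (8.77%), where 12.0% of all genes kept and 3.76% of the others within the WT limits were. The median difference was 0.98 for the members, 0.28 for all genes kept and 0.32 for the others within the limits. With median-of-ratios scaling, which shifted the median of all genes by -0.28, 53 members were higher and 15 lower, where 16.4% and 16.0% of all genes kept were, and the median of the members was 0.84. With the mean taken over the 6 other libraries, an alternative chosen after seeing the data, 2 members were lost, both among the 56, and 3 were added. Of the 115 genes then chosen 56 (48.7%) were higher and 10 (8.70%) lower, against 18.5% and 3.74% of the others within the WT limits. With 1 library per genotype there is no test of these counts.

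The share differed among the 3 classes. After dehydration 16 of the 27 genes that qualified with both treatments were at least 2-fold above WT in KO, with a median of 1.50. The class with mannitol alone had 33 of 64 and a median of 1.04, and the class with ABA alone 7 of 23 and a median of 0.33, close to that of all genes. The difference after dehydration also went with that in the controls. Of the 23 members at least 2-fold higher in the KO control, 21 (91.3%) were also higher after dehydration, against 546 of the 780 others within the WT limits with such a control (70.0%). Of the 75 within 2-fold in the controls, 35 (46.7%) were higher after dehydration, against 14.9% of the 10507 other genes within the WT limits whose controls were within 2-fold. Of the 16 with a lower KO control, 0 were higher after dehydration and 7 (43.8%) were lower, where 3 and 58 (52.7%) of 110 such others were.

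**Figure D5:**
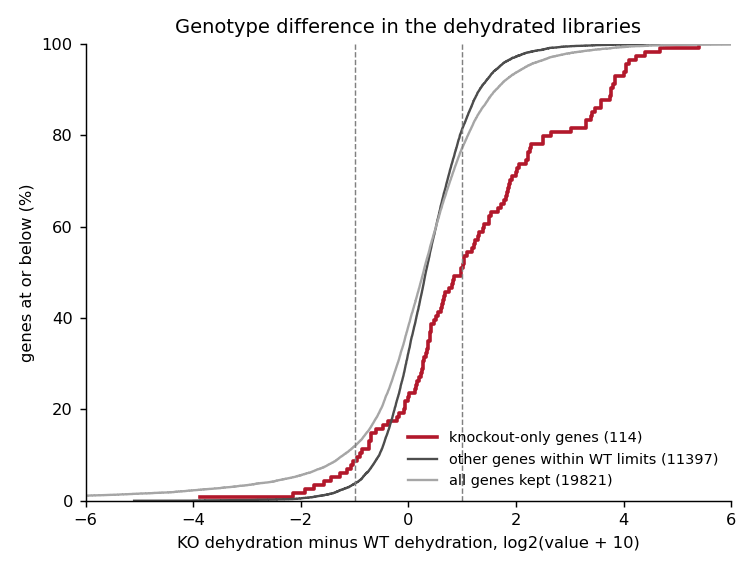
Cumulative share of genes (y axis, %) by KO dehydration minus WT dehydration (x axis, log2(value + 10) scale) for the 114 members, the 11397 other genes within the WT limits and all 19821 genes kept, with dashed lines at -1 and 1. The curve of the members lies to the right of the others above 0, with a median of 0.98 against 0.32 and 0.28.

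The highest values after dehydration were in Phpat.017G051000, with 438 reads in KO and 0 in WT, at least 111-fold higher with 3 reads per library as the floor, and in Phpat.002G060300 (chromosome 2, 9425887 to 9428518, minus strand). The latter had WT reads of 2, 0, 13 and 0 across control, ABA, mannitol and dehydration, against KO reads of 21, 39, 236 and 261, at least 66.2-fold higher after dehydration. Both were above WT in all 4 conditions. The lowest were Phpat.001G113300, 87.4-fold lower in KO (23.7 to 729), and Phpat.007G079900 (chromosome 7, 14672234 to 14676138, plus strand). Phpat.007G079900 stood at 325, 417, 463 and 1397 in WT and at 120, 608, 606 and 310 in KO, 4.51-fold lower after dehydration (3.99 to 5.11). It overlaps another gene model, and whether counting used strand is not given, so its reads may include that neighbour's.

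Against the KO control, 38 members were at least 2-fold higher after dehydration in KO, where 1.97% of all genes kept and 0.737% of the others within the WT limits were, and 1 was lower, where 10.8% of all genes kept were. The members were chosen for a low KO control relative to KO ABA or mannitol, so this comparison shares a library with the rule. With median-of-ratios scaling, which shifted the median of all genes by 0.26, 51 were higher and 0 lower, where 3.64% and 6.78% of all genes kept were. Set against the WT control instead, 48 were at least 2-fold higher in the dehydrated KO library, where 8.32% of all genes kept were. In 27 members the dehydrated KO library was at least 2-fold above the KO control, the WT control and the dehydrated WT library alike (23.7%), where 0.298% of the others within the WT limits and 0.837% of all genes kept were. In 81 members it lay between the KO control and the higher of the KO ABA and mannitol values, in 5 above both, and in 28 at or below the control. The members were chosen for high KO ABA or mannitol values, so a lower dehydrated value follows in part from the rule. The same counts over all genes kept were not made, and nothing is read from this order.

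The largest values against the KO control were in Phpat.001G043100, on the minus strand of chromosome 1 (7536666 to 7538187), and in Phpat.1Z039500, on that of scaffold_38 (75687 to 77208), whose reads were equal in every library. Across control, ABA, mannitol and dehydration each had WT reads of 3, 5, 7 and 6 against KO reads of 1, 6, 402 and 297, a mannitol ratio of 257 (45.8 to 10169). Phpat.001G041900 (chromosome 1, 7381922 to 7383359) was within 38 reads of them throughout, so these 3 may be 1 signal. Their ABA library stayed near the control, and mannitol and dehydration were alike. The lowest were Phpat.012G020900 (chromosome 12, 4525799 to 4528325, plus strand), 2.77-fold lower than the KO control (1.61 to 4.93), and Phpat.020G043600 (chromosome 20, 6567112 to 6568104, minus strand), 3.53-fold lower (1.34 to 10.9). Phpat.012G020900 kept its direction but was less than 2-fold lower with a pseudocount of 32 or median-of-ratios scaling.

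In WT most members also stayed within 2-fold of the control after dehydration: 92 of 114 (80.7%), against 83.8% of the other genes within the WT limits. At least 2-fold higher were 8 members (7.02%), where 1.61% of those others and 10.3% of all genes kept were. Lower were 14 (12.3%), where 14.6% of the others and 20.6% of all genes kept were. With 10 added, a gene with a WT control value under 10 cannot be 2-fold lower, and the lower quartile of the members there was 7.72. The staying within 2-fold is thus in part set by the scale. With a pseudocount of 1, 12 members were higher and 39 lower. The others were not matched for level. The highest were Phpat.007G079900, 4.30-fold (3.80 to 4.87), and Phpat.010G023100 (chromosome 10, 3991990 to 3998696, plus strand), 2.87-fold (2.58 to 3.20). Phpat.010G023100 stood at 464 and 1333 in WT control and dehydration and at 552 and 1341 in KO, so the genotypes were alike there, and set apart with ABA, at 850 in WT and 2442 in KO. The lowest were Phpat.006G069100 (chromosome 6, 12214074 to 12218400, plus strand), 4.78-fold lower (3.74 to 6.17), and Phpat.014G094400 (chromosome 14, 15404547 to 15407190, plus strand), read 33 times in the control and 0 times dried, at least 8.62-fold lower with the floor of 3 reads.

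Tests were possible only for effects averaged over the other factor, in 1 fit of all 8 libraries, 6 of which entered the rule. For the treatments over both genotypes, limma called 1 gene higher with ABA (0.00505% of genes kept), 3 higher and 107 lower with mannitol (0.555%), and 0 with dehydration (0.0%, against 2826 at an unadjusted p under 0.05), and 0 members among them. Members were chosen for responses that differ between genotypes, which enter the residual of this fit, so their 0 calls are not read. The genotype difference was averaged over the 4 conditions. With limma 741 of 19821 genes were higher in KO (3.74%) and 332 lower (1.67%) at a Benjamini-Hochberg adjusted p under 0.05. Of the members 22 were called higher (19.3%) and 0 lower, and nothing is read from this share because of the choice of members. With edgeR 18 members were called higher, where 1.51% of all genes kept were. With median-of-ratios scaling limma called 329 genes higher and 315 lower, 10 members among the former. The limma count of members was 0 without the ABA, the mannitol or the dehydration libraries, and 38 without the controls. By size alone, 20 members were at least 2-fold higher in KO in all 4 conditions, against 2.29% of all genes kept. The control, ABA and mannitol libraries entered the rule, so nothing is read from this count either.

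Members lay near each other on the chromosomes, a property the rule did not use. They were spread over 28 chromosomes and scaffolds, with 12 of the 1132 genes kept on chromosome 3 (1.06%) and 10 of the 715 on chromosome 8 (1.40%). Of the 114, 22 (19.3%) had another member as the next gene model, against 0.807% of the other genes kept that had a member beside them. With up to 5 genes between neighbouring members, 29 members (25.4%) fell into 14 runs. The longest held 3 members, from Phpat.005G092200 to Phpat.005G092900 (chromosome 5, 17716009 to 17798674). In it Phpat.005G092300 lies 42 bases from Phpat.005G092200 on the other strand, end to end, and had WT reads of 11, 6, 34 and 17 across control, ABA, mannitol and dehydration, against KO reads of 31, 283, 782 and 45. These neighbours were highest with mannitol and next with ABA in KO. Mannitol was above ABA in 81 of the 114 members, so this order is not particular to them. The first and last genes of the run correlated over the 8 libraries with r = 0.856.

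Several runs hold copies or overlapping models, and there the reads of neighbours cannot be told apart. Of the 10 runs that were a pair of directly adjacent members 6 were end to end on opposite strands, an orientation that 23.7% of all adjacent pairs of genes kept had. They include Phpat.001G043000 and Phpat.001G043100 (chromosome 1, 7535930 to 7538187), 20 bases apart, and the matching pair on scaffold_38, which may be the same signal. The near-equal copies Phpat.008G046500 and Phpat.008G046600 lie 52723 bases apart, and Phpat.008G089700 and Phpat.008G089800 lie 42970 bases apart. The 6 thus count copies as separate pairs, and not all are close. The pair Phpat.018G075100 and Phpat.018G075200 (chromosome 18, 15295413 to 15300636) overlaps. Phpat.018G075200 stood at 651, 1011, 996 and 444 in WT and at 645, 5397, 3648 and 619 in KO, so the genotypes were near each other in the control and set apart with ABA and mannitol. Of the members 14 (12.3%) overlap another gene model, against 8.71% of all genes kept, and 7 had a near-equal copy among the members. Counting those copies once leaves at most 110 separate signals. Overlapping models, and Phpat.001G043000 and its match on scaffold_38, were still counted apart. Not all neighbours were alike: Phpat.001G090300 and Phpat.001G090400 (chromosome 1, 17036958 to 17041924, tandem) correlated over the 8 libraries with r = 0.998, whereas Phpat.008G082900 and Phpat.008G083000 (chromosome 8, 15252564 to 15275949) had r = 0.535. Phpat.001G090500 (chromosome 1, 17065071 to 17065892), just outside the mannitol threshold, had WT reads of 6, 0, 18 and 0 against KO reads of 52, 239, 366 and 116, the order of the conditions seen in Phpat.001G090300.

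The members also differed from the rest in their annotation. An older V1.6 model was given for 74 (64.9%), against 78.6% of the other genes within the WT limits and 77.9% of all genes kept. Their median span was 2518.5 bases, against 3167 and 3089. Counts are not corrected for length and the members were less abundant than other genes, and the part of level in these shares was not tested.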

How the data were processed

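The authors deposited 1 normalized abundance signal per gene and library. Per the submitters' processing notes, FastQC, Trimmomatic, TopHat2, SAMtools and bedtools were used, with no versions. Their normalization and use of strand are not given in the sources used here. Poly(A) RNA was reverse transcribed from random primers, per the labels. Gene positions are those of the deposited V3.0 models (Phytozome v10, per the file). Each value was a whole multiple of 1 step per library, and 100% of the recovered reads were whole within 0.02. Recovery, limma, edgeR and DESeq2 were tested on simulated data.

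Members and lists were chosen with earlier results of these data known. Every log2 difference was taken after adding 10 to the value, so that changes of low genes are understated. Named genes are the 2 highest and, for the dehydration and control comparisons, the 2 lowest members, the 2 with most reads, those next to the threshold, the ends of the longest runs, their copies and the most similar genes. The genes of other runs were chosen after their values were seen. Near-equal copies had at least 100 reads in a library and differed by at most 3 reads or 10% in each. Intervals and the floor of 3 reads cover counting error only. All genes kept were fitted as treatment plus genotype (3 residual degrees of freedom) with limma 3.58.1 (intensity trend), and recovered reads with edgeR 4.0.16 (quasi-likelihood) and DESeq2 1.42.0. p-values are two-sided. Their spread is the departure from additive treatment and genotype effects, mixed with noise between single libraries of pooled RNA. Python 3.11.15 and R 4.3.3 were used.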

Additional observations from a re-analysis of the deposited data

Results flagged for a closer look

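In 3 members the dehydrated library was at least 2-fold above the control in KO and at least 2-fold below it in WT (2.63%), where 0.0965% of the other genes within the WT limits and 0.318% of all genes kept were. Phpat.002G060200 (chromosome 2, 9424382 to 9425817) had log2 differences of 2.14 in KO and -1.11 in WT, with 24 and 161 reads in KO control and dehydration and 12 and 0 in WT. Phpat.003G001200 had 1.24 and -1.03, and Phpat.013G030500 had 1.05 and -1.21. Both controls entered the rule, and the members were chosen for a low KO control relative to KO ABA or mannitol. Their share is therefore a description. With 1 library in each group, the opposite directions were not tested.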

How the results depend on the processing

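With a mean of at least 100 the rule kept 52 genes. After dehydration, members at least 2-fold higher in KO than in WT numbered 7 of those with ABA and not mannitol, 33 of those with mannitol and not ABA, 23 with a mean of at least 100, and 10 of the 25 that also met the rule at the 3 other settings, a choice made after seeing the data. Lower were 2 with ABA alone, 5 with mannitol alone and 2 of the 25. At a difference of 2 log2 units 32 were higher and 2 lower, where 1241 and 1109 of all 19821 genes kept were. The main count at 1 log2 unit, 56 of 114 members with a median of 0.98, varied with the number added. A pseudocount of 1 gave 63 above and 12 below, with a median of 1.52. A pseudocount of 32 gave 40 above and 7 below, with a median of 0.52. When near-equal copies were counted once, 52 of 110 were above and 10 below, with a median of 0.84.

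Against the KO control, dehydration was higher in 5 with ABA alone, 20 with mannitol alone, 20 with a mean of at least 100, 12 of the 25, and 16 at 2 log2 units. It was lower in 4 with a pseudocount of 1 and in 0 with a pseudocount of 32, with median-of-ratios scaling, with mannitol alone, in the 25 and at 2 log2 units. Against the WT control, WT dehydration was higher in 3 with ABA alone, 2 with mannitol alone and 1 at 2 log2 units. It was lower in 39 with a pseudocount of 1, 6 with 32, 3 with ABA alone, 7 with mannitol alone, 9 with a mean of at least 100 and 2 at 2 log2 units. In the controls KO was higher in 36 with a pseudocount of 1, 6 with 32, 3 with ABA alone, 11 with mannitol alone, 15 with a mean of at least 100 and 4 at 2 log2 units. It was lower in 2 with ABA alone, 9 with mannitol alone and 2 at 2 log2 units. The cause was not tested, beyond the smaller number of members considered in each subset. At 2 log2 units, of all 19821 genes kept, 57 were higher and 359 lower for KO dehydration against the KO control. For WT dehydration these were 863 and 1311, and for the controls 179 and 167. With a pseudocount of 1 or 32, or a mean of at least 100, counts over all genes kept were not made. Nothing is read from the counts of members there.

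For the genotype effect limma called 1073 genes and 22 members. The calls over all genes were 678 with edgeR, 4101 with DESeq2, 644 with median-of-ratios scaling and 2446 without the 2 control libraries. They were 0 with limma and no filter on low values (6750 at an unadjusted p under 0.05), 0 without the ABA libraries (3557 unadjusted), 5 without the mannitol libraries and 25 without the dehydration libraries. Members called were 46 with DESeq2, 10 with median-of-ratios scaling, 38 without the controls, and 0 with no filter or without the ABA, mannitol or dehydration libraries.

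Of 300 values of named members under the alternatives, 260 stayed on the same side of 1 log2 unit or within it, 40 moved and 0 reversed. No paired analysis was possible because each group is 1 library and the labels carry no replicate numbers. Leaving out replicates was not possible for the same reason. Low reads limit the ratios most where the KO control had under 20 reads, in 49 members.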
